A study of Drosophila melanogaster with 3 samples.

Results

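Deep intronic peaks are places where the tagged protein CG3995 was recovered on DNA inside a gene but far from any annotated start of transcription. A thresholded peak was counted as deep intronic when its summit lay over 2000 bp from the nearest start of any gene, in no annotated exon and inside the span of a gene. These 348 peaks were 8.17% of the thresholded list, which held 3912 others, and they merged into 335 separate regions. The rule used the location of the summit alone, and no signal value or sequence entered it. ChIP-seq, which sequences the DNA recovered with a protein by an antibody, was carried out on whole Drosophila melanogaster embryos of mixed sex, 0 to 24 hours old. Flies of the CG3995-GFP strain stably carried CG3995 with green fluorescent protein at its C terminus, and chromatin was recovered with an antibody against the fluorescent protein. The 3 biological replicates formed 1 group, so no treatment or genotype was compared. Every cell type of the embryo was pooled, and no promoter or cell type driving the transgene was named in the labels.

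Introns are removed from a transcript before it is translated, but their DNA can hold enhancers, which are stretches where transcription factors bind and act on a start at a distance. In Drosophila, long introns are common in genes that control development, and the first intron is often the longest. Enhancers commonly carry short sequences recognised by factors such as STAT, GATA and homeodomain proteins, while housekeeping promoters carry elements such as the DRE and Motif 1. A peak in an intron does not show which gene, if any, it acts on.

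Several of the strongest deep intronic peaks carried copies of a short sequence built around GTGAC, described with its counts further on. The windows of 101 bp around their summits are shown to make the spacing and orientation of those copies visible. They come from the RefSeq copy of the dm6 genome, plus strand, 5′ to 3′, and capitals mark each CNGTGAC (N is any base), on either strand.
Usp2, chrX:22461368-22461468: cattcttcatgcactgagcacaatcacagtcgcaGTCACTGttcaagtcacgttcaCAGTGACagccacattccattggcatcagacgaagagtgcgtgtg
AdamTS-B, chrX:5705247-5705347: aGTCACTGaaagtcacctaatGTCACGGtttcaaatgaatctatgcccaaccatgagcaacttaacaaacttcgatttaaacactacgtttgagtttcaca
zormin, chr3L:2146037-2146137: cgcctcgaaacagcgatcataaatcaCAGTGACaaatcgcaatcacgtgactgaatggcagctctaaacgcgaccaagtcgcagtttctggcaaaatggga
E23, chr2L:3348398-3348498: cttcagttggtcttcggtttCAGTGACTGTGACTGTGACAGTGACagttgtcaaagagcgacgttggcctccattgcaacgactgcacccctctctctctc
CG43759, chrX:18945653-18945753: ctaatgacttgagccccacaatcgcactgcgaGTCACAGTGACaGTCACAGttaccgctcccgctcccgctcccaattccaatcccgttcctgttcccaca
Mur2B, chrX:1642222-1642322: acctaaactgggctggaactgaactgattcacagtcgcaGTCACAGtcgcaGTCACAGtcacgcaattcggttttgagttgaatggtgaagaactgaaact
In E23 the 4 copies ran in one orientation, each sharing its last base with the next, whereas in Usp2 the 2 copies ran in opposite orientations on either side of a further GTGAC core.

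Other strong peaks had no such copy. The summit windows of Tlk and fzr, among the 10 strongest deep intronic peaks, and of the 2 strongest peaks of Raf, the gene with the most peaks, are shown for comparison. They hold no CNGTGAC, so they have no capitals.
Tlk, chrX:3742184-3742284: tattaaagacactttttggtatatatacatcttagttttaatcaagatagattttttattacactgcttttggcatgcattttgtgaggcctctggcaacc
fzr, chrX:4671399-4671499: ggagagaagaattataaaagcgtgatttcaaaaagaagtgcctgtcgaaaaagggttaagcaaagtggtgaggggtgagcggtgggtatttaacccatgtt
Raf, chrX:2297661-2297761: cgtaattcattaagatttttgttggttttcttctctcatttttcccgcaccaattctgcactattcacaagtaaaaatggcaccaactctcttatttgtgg
Raf, chrX:2317507-2317607: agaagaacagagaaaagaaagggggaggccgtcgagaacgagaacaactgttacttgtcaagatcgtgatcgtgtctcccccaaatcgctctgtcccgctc

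Deep introns held fewer peaks than their length would give. Bases that met the location rule made up 30.9% of the sequenced chromosome arms, against 8.17% of the thresholded summits (95% Wilson interval 7.38 to 9.03), which was 0.264 of the share of bases (exact binomial test over peaks, two-sided, p = 1.31e-284). Taking from each replicate as many of its strongest regions as the thresholded list holds gave 331, 323 and 378 deep intronic regions in replicates 1, 2 and 3, or 8.08% ± 0.698 (SD, n = 3). The low share went with the peaks at promoters, here within 500 bp of a start, which numbered 3199. Of the 1061 summits outside promoters, 32.8% were deep intronic, against 35.8% of the bases outside promoters (p = 0.0437, exact binomial test). Among the 476 summits over 2000 bp from every start, the deep intronic share was 73.1%, against 49.7% of such bases (p = 3.24e-25, exact binomial test). That came to 8.41 peaks per Mb of deep intron, compared with 3.40 per Mb of far intergenic sequence and 2.25 per Mb of far exons. All bases were counted in these lengths, repeats included, and the part this plays in the contrast was not tested. These p-values run over peaks, so the spread between embryo collections is not in them.

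The deep intronic peaks lay toward the weak end of the list. Signal is the deposited value of each region, enrichment over the control file, and it has no unit that carries over between lists. Its median was 177 (range 127 to 4335) for deep intronic peaks and 234 for all other thresholded peaks. Only 101 of the 348 (29.0%) were in the stronger one of 2 equal parts of the list, against 51.9% of all other peaks (Fisher's exact test, adjusted p = 2.93e-16) and 54.3% of promoter peaks (Fisher's exact test, adjusted p = 3.95e-19). Against the 99 far intergenic peaks, with 37.4% in the stronger part, the difference did not pass the test (Fisher's exact test, adjusted p = 0.139, ratio 0.777 with interval 0.573 to 1.05). When the list was divided into 5 equal parts by signal, deep intronic peaks were 2.70% of the strongest, then 5.87%, 7.86% and 11.2%, and 13.3% of the weakest. The weakest part held 113 and the strongest 23 (Fisher's exact test, p = 1.40e-16). In the pooled list, from which 15.3% of all 27868 regions were kept, 348 of 6895 deep intronic regions (5.05%) were kept, against 18.7% of all other regions.

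**Figure D1:**
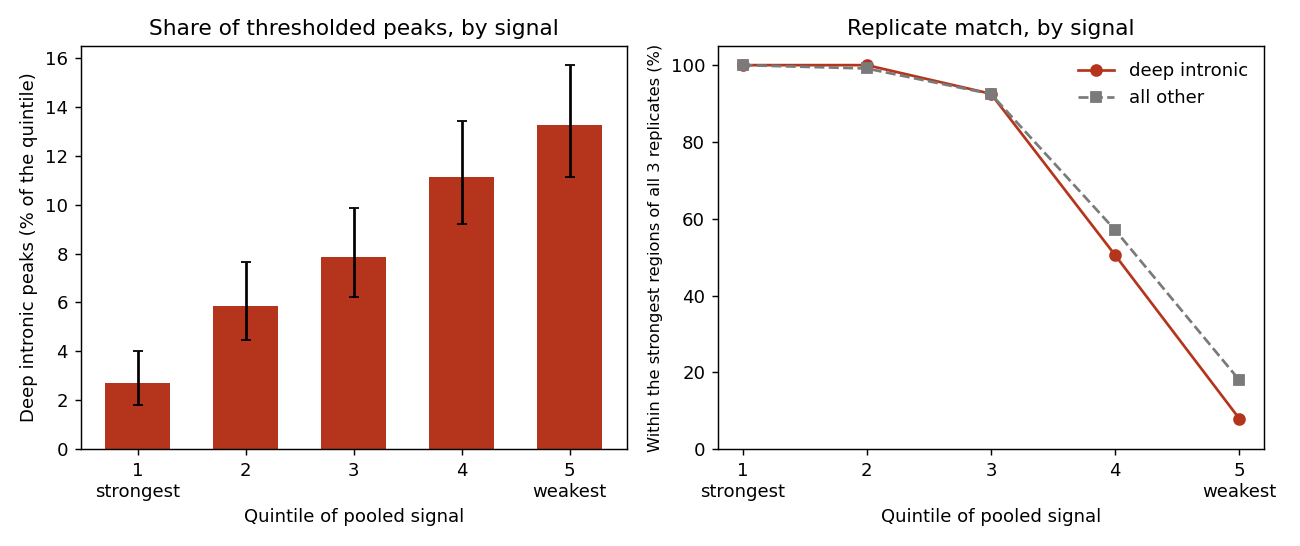
Left, the share of thresholded peaks that were deep intronic in each of 5 equal parts of the list by pooled signal, with 95% Wilson intervals; the share was 2.70% in the strongest and 13.3% in the weakest. Right, the share of deep intronic (circles) and all other peaks (squares) that were within the strongest regions of all 3 replicates; the shares are close in the first 3 parts and separate in the last.

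Replicate ranks followed signal, except toward the weak end of the list. A peak was counted as matched when it overlapped, by at least 1 bp, one of the strongest regions of all 3 replicates (as many per replicate as the thresholded list holds), which held for 72.9% of the thresholded list. Of the deep intronic peaks 192 (55.2%) were matched, against 74.5% of all other peaks (Fisher's exact test, adjusted p = 1.90e-13) and 62.6% of far intergenic peaks (Fisher's exact test, adjusted p = 0.207). Another 98 were within the strongest regions of 2 replicates, 56 of 1 and 2 of none. Within the 3 strongest of the 5 parts by signal the matched shares were 100%, 100% and 92.5% for deep intronic peaks and 100%, 99.1% and 92.5% for all others. In the next they were 50.5% and 57.1%, and in the weakest 9 of 113 deep intronic and 133 of 739 other peaks were matched. The median rank of the deep intronic peaks was 2891.5 in replicate 1, 2808.5 in replicate 2 and 2841 in replicate 3, and 295, 267 and 266 of them were within the strongest regions of those replicates. All 348 overlapped some region of replicates 1 and 2, and 345 overlapped one of replicate 3. Across these peaks the ranks had a Spearman correlation of 0.713 between replicates 1 and 2, 0.598 between 1 and 3, and 0.593 between 2 and 3, given as a description since the peaks were chosen from a list made from all 3.

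**Figure D2:**
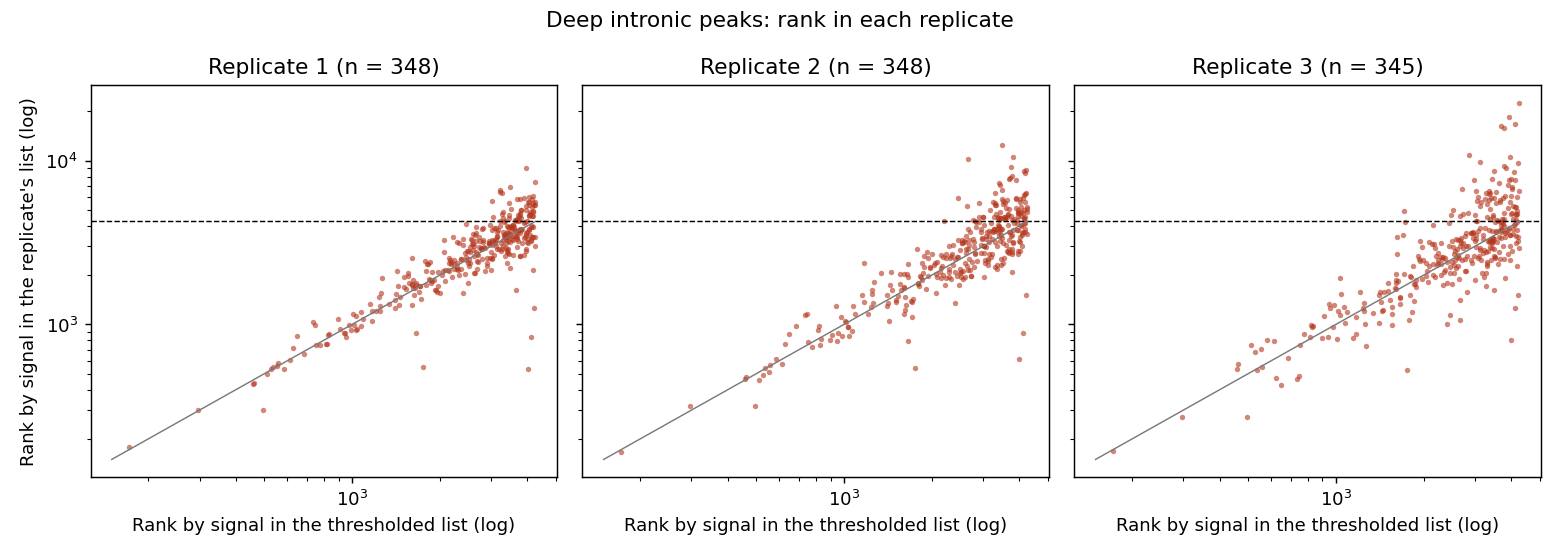
Rank by signal of each deep intronic peak in the thresholded list (horizontal, log scale) and the best rank of an overlapping region in each replicate (vertical, log scale), with rank 1 the strongest; the solid line is equal rank and the dashed line is the rank that limits the strongest regions. Points stay near the line among the strongest peaks and spread out among the weakest, most widely in replicate 3.

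The strongest deep intronic peak lay in the third of 10 introns of Usp2, which encodes a ubiquitin-specific protease. Its signal was 4335, rank 172 of the thresholded list, and its ranks were 179, 167 and 169 in replicates 1, 2 and 3. The summit was 4527 bp from the start of Usp2, whose own promoter peak had a signal of 4292. No other deep intronic peak came near this level, and none was among the 20 strongest peaks of the whole list. AdamTS-B, a gene for a secreted metalloprotease, had the next, with signals of 1638 and 790 at a pair of summits inside 1 interval, which ranked 299, 317 and 271 in the replicates.

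Evi5, which encodes a GTPase-activating protein for Rab proteins, had a signal of 870 and replicate ranks of 434, 467 and 531. Tlk, the Tousled-like kinase, had 862 in its first intron and ranks of 439, 478 and 570. Its summit was 2337 bp from a start of Tlk, which also had a promoter peak with a signal of 14162. The peak of ptc, the receptor for Hedgehog, had 765 and ranks of 497, 459 and 747, with no thresholded peak at the ptc promoter. Hr3, a nuclear receptor of the ecdysone response, had 739 with ranks of 533, 491 and 676, and its summit lay in soft-masked sequence, marked as repeat or low complexity. Peaks in spin (735), fzr (707), zormin (698), wake (665), CG32486 (647), CG3655 (632), E23 (616) and CG6330 (584) came next. These hosts include an activator of the anaphase-promoting complex (fzr), a muscle sarcomere protein (zormin), a regulator of sleep timing (wake) and an ecdysone-induced ABC transporter (E23). The 20 strongest were completed by CG43759 (545), Mur2B (538, a summit that also lies within br, the Broad transcription factor), shot (533, a spectraplakin that links actin and microtubules), upSET (520) and a (493). All 20 were matched in all 3 replicates.

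Nearest to the limit of 2000 bp, the peaks just inside were in NFAT (2005 bp, signal 144) and hiw (2009 bp, signal 142). Just outside were peaks in CG43867 (1978 bp, signal 141) and Klp98A (1967 bp, signal 178). The NFAT peak ranked 3324 and 2868 in replicates 1 and 2 but 16195 in replicate 3. Signals on both sides of the limit were alike in size. The median distance to the nearest start over all deep intronic peaks was 4591.5 bp, the largest was 42291 bp, and 51 peaks (14.7%) were over 10000 bp away. Soft-masked sequence held 63 of the summits (18.1%), against 24.1% of deep intronic bases.

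First introns held more of the deep intronic peaks than their length would give. A first intron of some transcript contained 214 of the 348 summits (61.5%, interval 56.3 to 66.5), against 37.6% of the deep intronic bases (exact binomial test, p = 2.62e-19). The replicates' own strongest regions gave 62.8%, 59.1% and 64.6% (62.2% ± 2.77, SD, n = 3). The X chromosome held 90 of them (25.9%), against 19.3% of the deep intronic bases (exact binomial test, adjusted over 6 arms, p = 0.0166) and 17.0% of all other thresholded peaks. The replicates' own lists gave 24.6% ± 1.08 on X (SD, n = 3), and 19.2% of the 6895 deep intronic regions of the pooled list were on X. This call was lost with 1 peak counted per host (24.7%, adjusted p = 0.224, exact binomial test). It was also lost when only peaks within the strongest regions of both replicates of a pair were kept, for each pair (26.0 to 26.2%, with fewer peaks tested). None of the other arms passed the test, with 48 peaks on 2L, 54 on 2R, 78 on 3L, 77 on 3R and 1 on chromosome 4.

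The peaks lay in 268 host genes, 259 of them protein-coding, and a host is any gene whose span held the summit. That was 6.19% of the 4333 genes with any deep intronic base. A single peak was found in 198 hosts, 2 peaks in 52 and 3 or more in 18, and 20 summits lay in more than 1 gene. Hosts had much longer deep introns than genes at large, with a median of 18.3 kb of deep intronic bases against 1.64 kb over all protein-coding genes that have any. Peaks spread evenly over bases would also fall more often in long genes, so this contrast is not a separate trait of the hosts. Hosts were 1.39% of protein-coding genes with up to 5 kb of deep intron and 27.3% of those above 50 kb. Of the protein-coding genes with deep intronic bases, 35.0% had a thresholded peak within 500 bp of a start, namely 119 of 259 hosts (45.9%) and 34.2% of the genes that were not hosts. Within classes of deep intron length the share with a promoter peak was 59.0% of hosts and 38.4% of other genes up to 5 kb, 52.3% and 27.4% from 5 to 10 kb, and 41.3% and 23.9% from 10 to 20 kb. In the longest classes it was 43.5% of hosts and 24.0% of others from 20 to 50 kb, and 38.6% of hosts and 18.8% of others above. Hosts were higher in each of these 5 classes, and the difference was not tested.

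Raf had the most deep intronic peaks, 7, all in its second intron and spread over 19846 bp. Raf encodes a kinase of the pathway below Ras and receptor tyrosine kinases. From its 5′ end the signals were 422, 165, 187, 153, 245, 134 and 405, so the first and the last were the strongest. Those outer peaks ranked 987, 1106 and 969, and 1124, 966 and 1143, in replicates 1, 2 and 3. The weakest, 11.0 kb into the gene, ranked 3851 and 3197 in replicates 1 and 2 and overlapped no region of replicate 3. Raf also had a promoter peak with a signal of 227, below 3 of its intronic peaks.

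Hr4, a nuclear receptor of the ecdysone response, had 6 peaks over 39895 bp in 3 introns. Their signals from the 5′ end were 174, 145, 195, 363, 297 and 168, and the strongest ranked 1204, 1374 and 1112 in the replicates. No thresholded peak lay at an Hr4 start. The simj gene, which encodes a subunit of the NuRD chromatin remodelling complex, had 5 summits in 3 merged regions of its first intron, with signals of 251, 200, 433, 276 and 166. The strongest simj region ranked 883, 787 and 1329, and all 5 summits were matched in every replicate. The shn gene, whose zinc-finger protein acts in Dpp signalling, had 5 summits in 4 merged regions. Their signals were 159, 188, 152, 283 and 150, and 3 of these 5 were matched.

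There were 4 peaks each in tara, CHES-1-like and InR. The tara peaks had signals of 193, 310, 235 and 401, all matched. In CHES-1-like, a forkhead transcription factor gene, 1 peak of 452 stood above 3 with signals of 179, 129 and 132, and it alone was matched. InR, the insulin receptor, had signals of 174, 148, 131 and 430, the strongest ranking 838, 890 and 1261. Over these 7 hosts, 24 of 35 peaks were matched. Summits in 1 merged region share their replicate ranks, so the InR summit of 131 was matched through the ranks of its neighbour of 430. The others with 3 peaks and the largest summed signal were CG12912 and Hr3, which overlap and share their peaks, Lrch, sick, sbb, Gug, Zdhhc8 and CG5151.

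**Figure D3:**
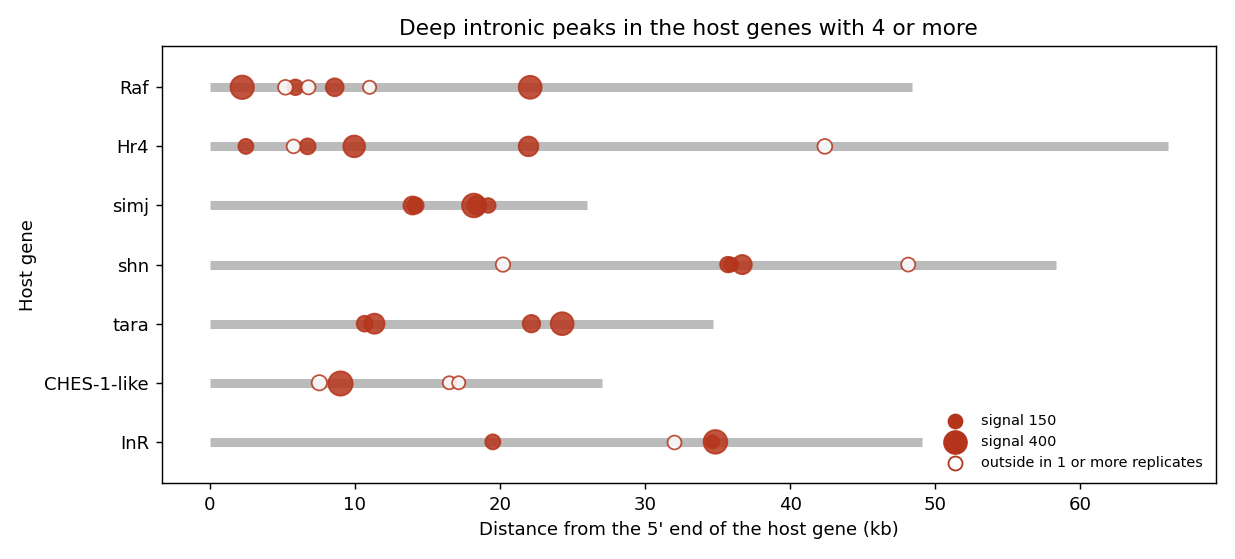
Deep intronic peaks in the 7 host genes with 4 or more, by distance from the gene's 5′ end in kb; grey bars show the gene's length and the area of a circle grows with signal. Filled circles were within the strongest regions of all 3 replicates (24 of 35), and open circles were outside in 1 or more. The 7 peaks of Raf lie between 2.25 and 22.1 kb from its 5′ end.

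Gene lists were read by their counts alone, beside the 6.14% of all protein-coding genes with deep intronic bases that were hosts and the 8.12 peaks per Mb over them. The ecdysone response, the steroid hormone programme that times moulting and metamorphosis, had 7 hosts among 15 such genes, with 15 peaks or 26.2 per Mb. They were Hr3 (3 peaks, largest signal 739), br (1, 538), Hr4 (6, 363) and Eip63E (1, 213), followed by Eip75B, Eip74EF and ftz-f1 with largest signals of 183, 161 and 156. Only Eip75B among these 7 had a promoter peak, with a signal of 298.

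Notch and EGFR signalling had 4 hosts of 19, at 29.5 peaks per Mb. They were the Notch coactivator mam (2 peaks, 347), the Notch ligand Ser (1, 276), the Ets repressor aop (2, 259) and the receptor N (2, 214). Only 23 of the 25 symbols of this list were found in the annotation. The hosts Delta (1 peak, 159) and Raf (7 peaks) were not counted in it. Dpp and Toll signalling had 2 of 13, shn and the Dpp antagonist sog (2 peaks, 184), and its 7 peaks came to 46.5 per Mb on 0.151 Mb of deep intron. Cytosolic kinases and growth signalling had 4 of 22, InR, wts (2 peaks, 186), Pka-R2 (132) and dnc (129), at 23.2 per Mb. Polycomb and trithorax group genes had 3 of 21, trx (2 peaks, 481), jing (159) and Psc (144), at 26.9 per Mb. Cytoskeletal genes had 4 of 31, shot, scrib (200), mbl (175) and hts (158), at 8.99 per Mb.

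Segment polarity, Wnt and Hedgehog genes had 2 of 18, ptc and fz (2 peaks, 144), at 8.26 peaks per Mb. Hox genes and their cofactors had 2 of 10, hth (153) and Antp (127), at 5.66 per Mb. Neural transcription factors had 3 of 18, br, grh (192) and fru (2 peaks, 179), at 8.92 per Mb. Muscle and mesoderm genes had 2 of 22, kirre (2 peaks, 312) and mbc (307), at 5.03 per Mb. In these lists the peaks per Mb were near or below the 8.12 of all protein-coding genes, though the shares of hosts were above 6.14%. Axon guidance and neural adhesion genes had 5 of 40, led by Fas3 (2 peaks, 260), robo2 (256), fra (161) and NetB (158), at 3.46 peaks per Mb. RNA-binding and splicing regulators had 4 of 24, shep (210), mbl, pum (163) and Rbfox1 (153), at 3.07 per Mb. The dpr and DIP surface proteins had 2 of 27, dpr3 (371) and dpr9 (167), at 2.63 per Mb, and ion channels 1 of 25, the sodium channel para (201), at 1.22 per Mb. Of 20 gap and pair-rule genes 5 have any deep intronic base, and none was a host.

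The elements of housekeeping promoters were nearly absent from deep intronic summits. The DRE (TATCGATA), bound by DREF, was in 1 of 348 windows of 101 bp (0.287%), against 9.03% of promoter windows (Fisher's exact test, adjusted over 20 elements on both strands, p = 3.04e-11). Motif 1 (GGTCACAC) was in 0 of 348, which allows a share of up to 0.862% (3 counts), against 4.47% (Fisher's exact test, adjusted p = 4.28e-06). The STAT element TTCNNNGAA was in 21 of 348 windows (6.03%), against 1.29% of the 696 flanking windows centred 300 bp away (adjusted p = 7.69e-04) and 2.28% of promoter windows (adjusted p = 0.00175, both Fisher's exact test). The 3 replicates' own deep intronic regions gave 5.01% ± 0.515 (SD, n = 3). The element AGATAA of GATA factors was higher than at promoters, 10.3% against 5.69% (Fisher's exact test, adjusted p = 0.00679), but against flanks, at 6.90%, it did not pass (Fisher's exact test, adjusted p = 0.174). The STAT and GATA calls against promoters were both lost with a distance limit of 5000 bp (adjusted p = 1.00 and 0.173, Fisher's exact test), with windows of 25 bp (0.149 and 0.0941) or 100 bp (0.464 and 0.123) to each side, and in the stronger part of the list (0.164 for each). The Motif 1 call was lost in the stronger part alone (Fisher's exact test, adjusted p = 0.164), and the DRE call held under each alternative run.

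STAT elements were found in peaks of ptc, trx, CG13917, Pdp1 and shn among others. They were in 5.75% of the stronger 174 deep intronic peaks and 6.32% of the weaker 174 (Fisher's exact test, adjusted p = 1.00). The windows of trx and Pdp1 show the element in capitals.
trx, chr3R:14283833-14283933: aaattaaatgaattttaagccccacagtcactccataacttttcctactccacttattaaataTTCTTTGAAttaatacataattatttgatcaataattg
Pdp1, chr3L:7851012-7851112: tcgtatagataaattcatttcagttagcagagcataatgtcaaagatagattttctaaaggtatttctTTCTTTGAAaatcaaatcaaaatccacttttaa

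Against flanks, TATAAA was higher as well (17.0% and 9.20%, adjusted p = 0.00347), as was the homeodomain core TAATTA (10.1% and 5.17%, adjusted p = 0.0201, both Fisher's exact test). CACACACA (1.44% and 5.60%, adjusted p = 0.00631) and GAGAGAG (1.15% and 4.17%, adjusted p = 0.0314) were lower at summits by Fisher's exact test. Base composition differed as well. The median GC content was 35.6% at deep intronic summits, 42.6% at their flanks and 38.6% at promoter summits, and its part in these counts was not tested. None of the 5 calls against flanks held when the window was 25 bp to each side or the distance limit 5000 bp, and with flanks at 500 bp only CACACACA did. Against far intergenic summits no element passed Fisher's exact test, and 2 of 20 (Pho and Ets, both lower) had an unadjusted p under 0.05.

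**Figure D4:**
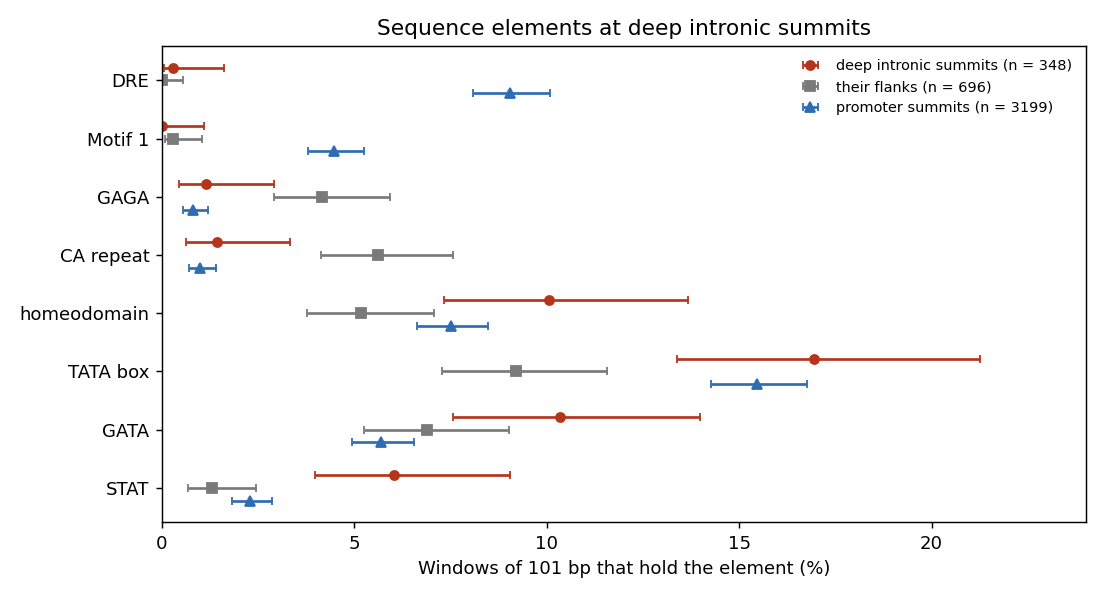
Share of 101 bp windows that held each element at deep intronic summits (circles, n = 348), their flanks (squares, n = 696) and promoter summits (triangles, n = 3199), with 95% Wilson intervals. The DRE and Motif 1 are near 0 at deep intronic summits and 9.03% and 4.47% at promoters, while STAT is at 6.03%, against 1.29% in flanks and 2.28% at promoters.

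A search over all 2080 sequences of 6 bases, each counted with its reverse complement, was added after the values were seen. It called 52 higher at deep intronic summits than at flanks (2.50%) and 17 lower (0.817%). The smallest p belonged to ACAGTG, in 56 of 348 summit windows (16.1%) and 3.59% of flanks (Fisher's exact test, adjusted over 2080, p = 1.71e-08). CTGTGA (12.9% and 3.02%), AGTCAC (15.5% and 4.74%), CAGTGA (12.9% and 3.30%), AATCAC (12.9% and 3.59%) and AGTGAC (11.5% and 3.30%) followed. Of the lower ones ACACAC had the smallest p, at 4.89% and 13.1%, and CCGGCA, at 0.287% and 4.45%, had a lower ratio. Several of these overlap one another, and 4 of the 52 held the 5-base core GTGAC or its complement.

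Deep intronic regions ranked 4276 to 8510 in the pooled list allowed a test in regions of lower rank. They were taken by rank alone, and overlap of their windows with those of the search was not checked. In these 753 windows ACAGTG was in 7.97%, against 4.32% of their flanks (Fisher's exact test, adjusted over 15, p = 0.00342). CTGTGA (6.51% and 3.32%, adjusted p = 0.00342) and AGTCAC (6.24% and 3.25%, adjusted p = 0.00378) also passed Fisher's exact test. By the same Fisher's exact test ACTGTG (7.70% and 3.72%, adjusted p = 0.00135, the smallest of the 15) and AATCAC (8.23% and 5.05%, adjusted p = 0.00937) passed. CCTGCC, lower in the search, was lower here as well (1.46% and 3.92%, adjusted p = 0.00378, Fisher's exact test). The rest of the 15 did not pass, among them AGTGAC (3.05% and 2.52%) and CAGTGA (5.44% and 3.45%), with adjusted p = 0.615 and 0.0690 by Fisher's exact test.

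CNGTGAC itself, chosen after the search, was in 47 of 348 deep intronic windows (13.5%, interval 10.3 to 17.5) and 2.59% of their flanks. Promoter windows held it in 7.63%, far intergenic ones in 17.2% and those between 501 and 2000 bp from a start in 10.6%. Far exonic windows held it in 7 of 29 (24.1%), and it was therefore found in every class of location. It was in 20.1% of the stronger 174 deep intronic peaks and 6.90% of the weaker 174 (Fisher's exact test, p = 4.57e-04). Both parts had been used in the search that led to the pattern, so this test is not independent of it. The lower ranked 753 regions had it in 4.38%, against 2.19% of their flanks (Fisher's exact test, p = 0.00505). Within 200 bp of the deep intronic summits there were 126 sites, 63 of them within 25 bp of the summit. Every copy was counted, so peaks with several copies, such as 4 in the E23 window and 6 in that of para, add several sites. Around promoter summits 196 of 565 sites (34.7%) were that near.

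Copies were often repeated. The core GTGAC was present at least 2 times in 33 of 348 deep intronic windows (9.48%), against 4.47% of promoter windows. Far intergenic windows had at least 2 in 14 of 99 (14.1%). At least 1 core was in 24.7% of deep intronic, 26.1% of promoter and 30.3% of far intergenic windows. Motif 1 (GGTCACAC) itself holds the complement of the core. The 143 promoter windows with Motif 1 are therefore among those with a core, and no deep intronic window had Motif 1. The largest number was 7 copies in a deep intronic window and 5 in a promoter window. Cores in the same orientation exactly 6 bases apart, as in E23, were in 8 deep intronic windows (2.30%), in 0.188% of promoter windows and in 3 of 99 far intergenic ones. Ae2 and para, chosen after their values were seen, show such rows in peaks of lower signal (346 and 201). The Ae2 peak ranked 1305, 1526 and 1201 in replicates 1, 2 and 3 and was matched. The para peak, whose window held the 7 copies, ranked 4126, 5928 and 1136 and was not matched.
Ae2, chr3L:9777109-9777209: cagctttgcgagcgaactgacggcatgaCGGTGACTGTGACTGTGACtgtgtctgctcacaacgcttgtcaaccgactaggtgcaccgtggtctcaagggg
para, chrX:16499517-16499617: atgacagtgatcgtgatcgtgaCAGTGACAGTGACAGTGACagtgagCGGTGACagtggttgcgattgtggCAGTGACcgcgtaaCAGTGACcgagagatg

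**Figure D5:**
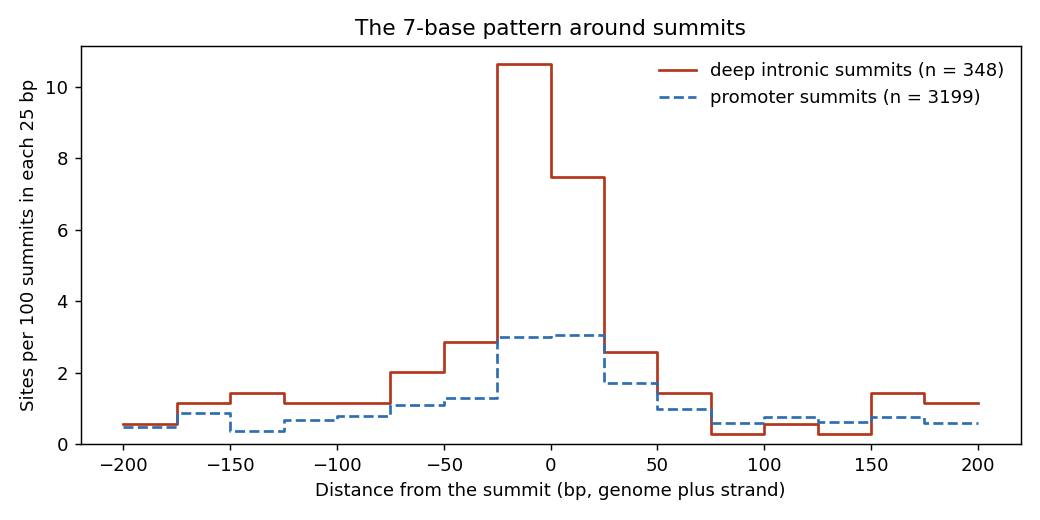
Sites of the 7-base pattern with the GTGAC core per 100 summits in each 25 bp, by distance from the summit, for deep intronic (solid, n = 348) and promoter summits (dashed, n = 3199). Both peak at the summit, with 10.6 and 7.47 sites per 100 deep intronic summits in the bins on either side of 0, against 3.00 and 3.06 at promoters. Every copy is counted, so a peak with several copies adds several sites.

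Peaks with the pattern ranked better in 1 replicate than in the others. The E23 peak ranked 851 and 879 in replicates 1 and 2 but 427 in replicate 3, and CG43759 ranked 1036, 1138 and 463. The Mur2B peak ranked 997, 1153 and 484 in replicates 1, 2 and 3. Replicate 3 gave the best of the 3 ranks for 30 of 47 deep intronic peaks with CNGTGAC (63.8%) and for 94 of 298 without it that overlapped all 3 lists (31.5%; Fisher's exact test, adjusted over 4 classes of location, p = 1.29e-04). Their median ranks were 1930, 2023 and 1261 in replicates 1, 2 and 3 with the pattern, and 2939, 2937 and 3007.5 without it. At promoters the shares were 40.9% and 33.0% (adjusted p = 0.0176, Fisher's exact test), and far intergenic peaks had 12 of 16 with the pattern and 34 of 80 without it (adjusted p = 0.0268, Fisher's exact test). Whether the difference is larger in deep introns than at promoters was not tested. This comparison was made after the ranks of the strongest peaks were seen. Among each replicate's own strongest regions, the deep intronic ones held the pattern in 13.6%, 12.1% and 13.8% of windows in replicates 1, 2 and 3 (13.1% ± 0.928, SD, n = 3).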

How the data were processed

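Each replicate's narrowPeak list was deposited by the authors with a signal value for every region (enrichment over a control file), per the submitters' notes, and a pooled and a thresholded list were made from all 3 replicates. The caller, its threshold and read depth are not given in the sources used here, and no control or reads were analysed, so signal was compared within lists and only ranks between them. The dm6 lists were used and the dm3 lists were not. Chromatin was sheared to 200 to 800 bp, per the labels. Starts (23581) and exons of 18164 genes came from Ensembl release 115, without transposable elements, and sequence from the RefSeq copy of dm6; coordinates are 1-based.

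Each summit was assigned by its distance to the nearest start: promoter (within 500 bp), near (501 to 2000 bp), or far, then exonic, deep intronic or intergenic. The strongest regions of a replicate are its first 4260 by signal, the length of the thresholded list. Shares were compared with shares of bases by exact binomial tests, and between classes or windows by Fisher's exact test, all two-sided, with Benjamini-Hochberg adjustment at 0.05 within each family (Python 3.11.15, scipy 1.17.1, pandas 2.3.3). Element matching, the 6-base search and the location rule were tested on simulated data. Intervals (Wilson, 95%) allow for counting error alone. The p-values count peaks or windows as independent and leave out the spread between collections; values from each replicate's list are given as mean ± SD where they were computed.

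The members, the 15 gene lists and the 20 elements were chosen with earlier results of these data known. Of 391 gene symbols in the lists, 386 were found in the annotation, and the rest were not counted. Genes named were the hosts of the 20 strongest deep intronic peaks, up to 15 hosts with 3 or more peaks, up to 4 hosts per list with the largest signal, and peaks beside the distance limit. The remaining ecdysone hosts, the host genes of STAT elements, Ae2 and para were named after their values were seen. Sequences on 2R are not shown.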

Additional observations from a re-analysis of the deposited data

How the results depend on the processing

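The low share of deep intronic summits, their weaker signal, their lower share matched in all replicates and their place in first introns kept direction and stayed past the test under every alternative run for them, with 1 exception: among the stronger part of the list 99.0% were matched, slightly above all other peaks (Fisher's exact test, p = 1.00), but nearly all peaks of both kinds were matched there, so a difference could hardly show. With a limit of 5000 bp there were 131 host genes, X held 27.4% (exact binomial test, adjusted p = 0.0631), 0 elements passed against flanks, 2 against promoters and 9 sequences of 6 bases were higher. A limit of 1000 bp gave 115 such sequences, and the 52 became 25 with windows of 25 bp to each side, 29 with flanks at 500 bp and 19 with 1 peak per host, where X held 24.7%. Taking 1 start per gene gave 446 hosts. The stronger part of the list gave 91 hosts, 0 elements against flanks, 1 against promoters and 15 sequences of 6 bases. Elements against flanks numbered 0 with windows of 25 bp to each side and 1 with flanks at 500 bp, and against promoters 2 with windows of 100 bp to each side. Peaks were also limited to those within the strongest regions of both replicates of a pair, for each pair in turn. This gave 171 to 188 hosts, 1 to 3 elements against flanks, 20 to 22 sequences of 6 bases and 26.0 to 26.2% on X. The thresholded list and its signal still came from all 3 replicates, so no replicate was left out of the peak calling. Fewer peaks or shorter windows were tested in most of these settings, but some differences were themselves smaller. At 5000 bp the difference from flanks went from 4.74 to 0.637 percentage points for STAT, 7.76 to 4.46 for TATAAA and 4.89 to 0.637 for TAATTA. It did not shrink for CACACACA (-4.17 to -4.78) or GAGAGAG (-3.02 to -3.18). Why calls were lost was not tested. The search of 6 bases and the setting of 1 peak per host were chosen after seeing the data.

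No paired analysis was possible because the replicates form a single group. The depth of the libraries is unknown and no control was analysed, so enrichment could not be judged apart from the deposited signal. Neighbouring summits in 1 interval share their replicate rank.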
